A study of Mus musculus with 12 samples.

Results

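The long noncoding RNA Nron (noncoding repressor of NFAT) is known for binding a set of cytoplasmic proteins, and 9 genes encoding such partners are described here in mouse hearts. They were chosen by name from the proteins reported to bind the RNA, with earlier results of these data known, and they are Kpnb1, Cse1l, Tnpo1, Iqgap1, Lrrk2, Cul4b, Psmd11, Eif3e and Ppp2r1a. All 9 were found among the 54146 gene records and all 9 passed the filter on low counts, which left 15477 genes to be tested. Polyadenylated RNA was sequenced from 12 heart libraries in 3 groups of 4, taken 6 weeks after surgery. The groups were Nron knockout mice after transverse aortic constriction (TAC KO), wild-type mice after that operation (TAC WT) and wild-type mice that had only a sham operation (Sham WT). Transverse aortic constriction narrows the aorta and loads the left ventricle with pressure, whereas sham surgery leaves the vessel open. The sources used here give no strain, age, sex or knockout allele design, and sham-operated knockouts were not analysed here. Whether each library is a separate animal is not stated either, so a p-value reflects library-to-library spread, which may be technical.

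NFAT transcription factors wait in the cytoplasm in a phosphorylated form. When calcium rises, the phosphatase calcineurin strips the phosphates and importins carry NFAT into the nucleus, where it drives genes of pathological heart growth. The Nron complex is described as a cytoplasmic hold on phosphorylated NFAT, built from the RNA, nuclear transport receptors, the scaffold Iqgap1 and kinases such as Lrrk2. Setting TAC KO against TAC WT asks what the loss of Nron does in pressure-loaded hearts, and setting TAC WT against Sham WT asks what the load does in wild-type hearts. Both use the same TAC WT libraries, so a TAC WT group that happens to lie high or low gives opposite signs in the pair of comparisons.

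Total counts ran from 28565856 to 35777820 in TAC KO, from 26288519 to 35945770 in TAC WT and from 27596898 to 35491024 in Sham WT. Levels are given as counts-per-million (CPM), scaled by library sizes with TMM factors. Nron itself could not check the genotype labels: its 2 gene records held 0 counts in all 12 libraries, where 3 counts would be 0.0835 to 0.1141 CPM. The libraries differed in how counts depended on a transcript's base composition. The log2 level of the most GC-rich quintile of genes minus that of the least GC-rich quintile, relative to the mean library, was 0.104 to 0.429 in TAC KO, against -0.149 to -0.061 in TAC WT and -0.12 to -0.041 in Sham WT. The highest value, 0.429, was that of TAC KO library 1, and the other 3 of that group reached at most 0.125. The same measure for long minus short transcripts was -0.256 to -0.147 in TAC KO, -0.035 to 0.192 in TAC WT and -0.002 to 0.149 in Sham WT. These trends follow the knockout group, so technical and biological sources of them cannot be told apart, and for the 9 partners each change involving TAC KO is also given with the trends removed.

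Of the 9 genes, 4 fell and 1 rose in TAC KO hearts relative to TAC WT hearts. Those that fell were Tnpo1, Iqgap1, Lrrk2 and Psmd11, and the phosphatase scaffold Ppp2r1a rose, each by a log2 change under 0.5 in size. Calls rest on edgeR's quasi-likelihood test over all tested genes with a Benjamini-Hochberg adjusted p under 0.05. In the same comparison 17.3% of all tested genes fell and 15.7% rose. The median log2 change of the 9 was -0.13, beside 0.0 over all tested genes. Of the 9, 4 had CPM ranges that did not overlap between the groups, and so did 28.5% of tested genes. With the GC and length trends removed, 1 fell (Lrrk2) and 3 rose (Cse1l, Eif3e and Ppp2r1a), where 13.6% of genes fell and 12.5% rose.

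In TAC WT hearts relative to Sham WT hearts, Iqgap1 and Psmd11 rose and Ppp2r1a fell, and the other 6 genes did not pass the test. Of all tested genes 9.67% rose and 10.0% fell in that comparison. The same 3 genes passed with the trends removed, where 10.9% rose and 11.6% fell. Without TAC WT library 1 or 4 only 1 of the 9, Ppp2r1a, was called. Ranges did not overlap for 2 of the 9, Iqgap1 and Ppp2r1a, and for 24.7% of tested genes. Between TAC KO and Sham WT, 1 of the 9 passed, Tnpo1, which fell, where 14.8% of tested genes fell and 12.8% rose. With the trends removed Tnpo1 no longer passed and Eif3e rose, where 11.5% of genes fell and 9.86% rose. Ranges in TAC KO and Sham WT did not overlap for 2 of the 9, Tnpo1 and Lrrk2, and for 30.7% of tested genes.

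**Figure D1:**
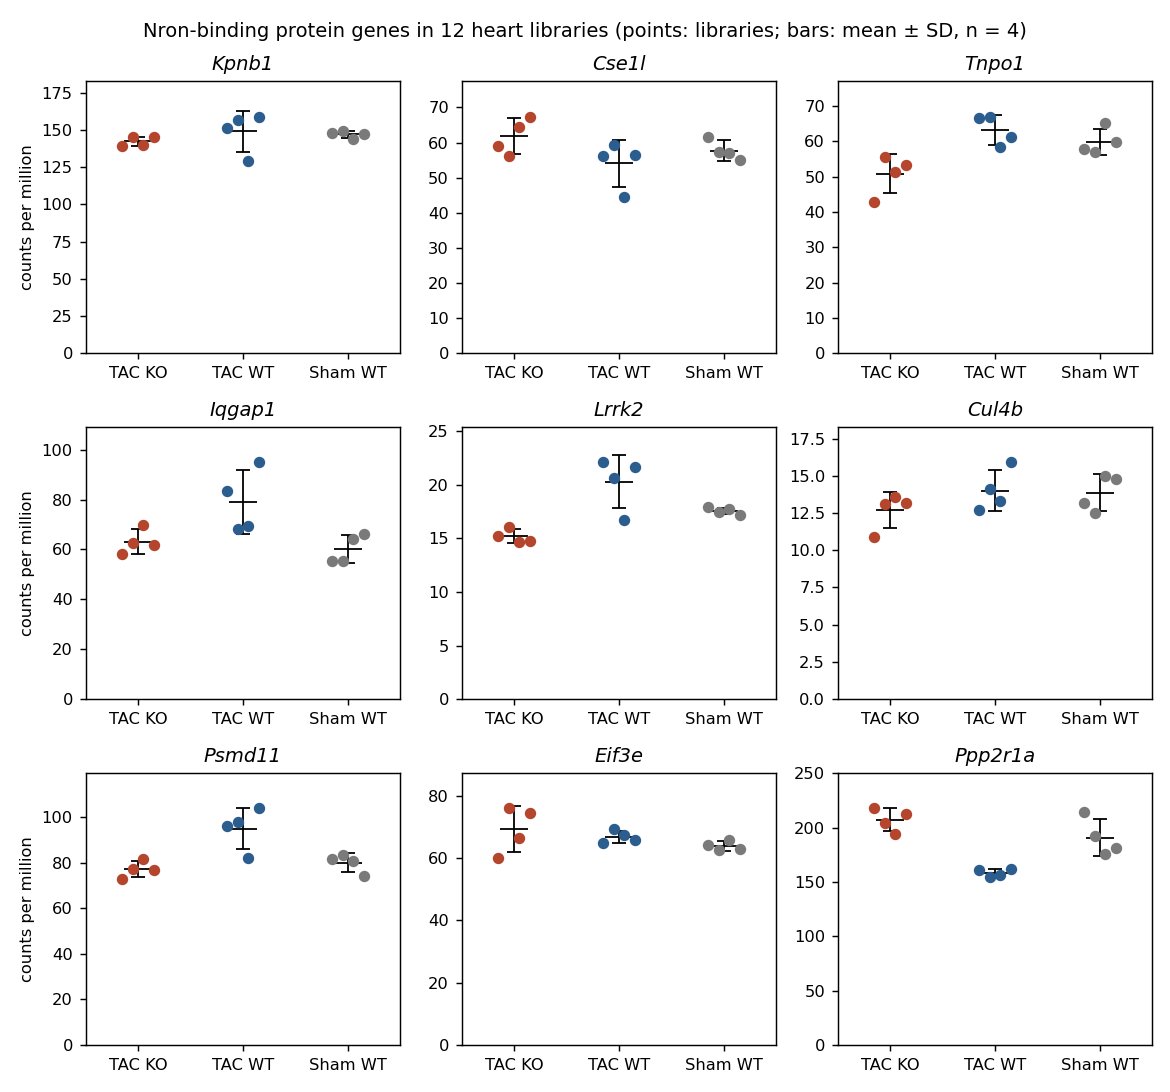
CPM of the 9 genes in each library (points), with the mean and SD of the 4 libraries of a group as black bars and each vertical axis starting at 0. Ppp2r1a in TAC KO lies between 194 and 218 CPM, above all 4 TAC WT libraries, while Tnpo1, Lrrk2 and Psmd11 lie below all 4.

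The promoters of Tnpo1, Lrrk2, Psmd11 and Ppp2r1a are shown because their knockout calls against TAC WT held without each library in turn, and because each holds the short core that NFAT factors recognise. Sequences are RefSeq's, build GRCm38.p6, 5′ to 3′ on the gene's strand, and were matched for 7 of the 9 genes by symbol. Windows were the 250 bases before the transcription start, and only the stretch outside annotated exons is printed. Capitals mark the NFAT core GGAAA or its reverse complement TTTCC and the ETS motif CCGGAAG or its reverse complement CTTCCGG.
Tnpo1 (chr13:98926385-98926634, minus strand): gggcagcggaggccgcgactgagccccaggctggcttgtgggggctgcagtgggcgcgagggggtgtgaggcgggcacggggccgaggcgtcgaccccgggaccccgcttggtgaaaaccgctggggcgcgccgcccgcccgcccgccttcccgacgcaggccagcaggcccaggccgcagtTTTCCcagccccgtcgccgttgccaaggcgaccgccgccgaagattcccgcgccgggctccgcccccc
Lrrk2 (chr15:91672974-91673174, plus strand): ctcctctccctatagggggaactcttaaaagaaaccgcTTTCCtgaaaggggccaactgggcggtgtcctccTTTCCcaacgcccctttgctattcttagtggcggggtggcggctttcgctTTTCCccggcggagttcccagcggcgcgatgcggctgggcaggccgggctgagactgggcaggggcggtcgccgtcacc
Psmd11 (chr11:80428365-80428614, plus strand): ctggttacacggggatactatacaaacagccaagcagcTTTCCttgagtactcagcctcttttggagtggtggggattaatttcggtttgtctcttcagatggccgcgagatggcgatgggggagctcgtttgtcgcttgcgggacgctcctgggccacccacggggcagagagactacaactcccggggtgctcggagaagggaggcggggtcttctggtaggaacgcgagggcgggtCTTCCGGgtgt
Ppp2r1a (chr17:20945204-20945310, plus strand): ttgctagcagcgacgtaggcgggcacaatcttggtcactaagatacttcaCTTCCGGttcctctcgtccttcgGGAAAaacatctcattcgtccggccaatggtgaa

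The NFAT core, searched on both strands, was in the windows of 4 of the 7 genes, and in 55.6% of 32851 RefSeq promoter windows of the same length. These 4 are the ones shown, and Kpnb1, Iqgap1 and Cul4b had 0 matches. Lrrk2 had 3 matches, all reading TTTCC, Psmd11 had 1, Tnpo1 had 1 in the window shown and 1 in that of another start, and Ppp2r1a had 2, of which 1 lies in the printed stretch. The ETS motif, whose letters do not overlap an NFAT match in the printed stretches, was in the windows of Psmd11 and Ppp2r1a and in 6.91% of all windows. Other motifs searched were the GC box GGGCGG, in 6 of the 7 genes and 32.7% of all windows, and the CCAAT box, in 4 and 33.8%. The E-box CACGTG was in 0 of the 7 and in 6.02% of all windows. Any link between a motif and a change in level was not tested. A match describes letters in the window and does not show binding.

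Gene positions are those of the GENCODE annotation on GRCm38. Of the nuclear transport receptors, Kpnb1 (ENSMUSG00000001440.5, chr11:97159714-97187881, minus strand) encodes importin beta 1, the carrier that takes importin alpha and its cargo through the nuclear pore. Its levels were 139, 145, 140 and 145 CPM in TAC KO, 151, 157, 129 and 159 CPM in TAC WT, and 148, 149, 144 and 147 CPM in Sham WT. The knockout libraries lie inside the TAC WT range, whose spread comes from TAC WT library 3. The log2 change was -0.07 ± 0.06 (SE) in TAC KO against TAC WT and 0.02 ± 0.06 in TAC WT against Sham WT, with edgeR adjusted p-values of 0.446 and 0.856. The knockout change was 0.04 with the trends removed. In TAC KO against Sham WT it was -0.05 ± 0.06 (adjusted p = 0.625), and 0.05 with the trends removed.

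Cse1l (ENSMUSG00000002718.14, chr2:166906040-166946389, plus strand) encodes the export receptor that returns importin alpha to the cytoplasm. It had 59.1, 56.3, 64.5 and 67.4 CPM in TAC KO, 56.1, 59.4, 44.4 and 56.4 CPM in TAC WT, and 61.7, 57.4, 56.9 and 54.9 CPM in Sham WT. The groups overlap, and TAC WT library 3 holds the lowest value of the 12. The knockout change of 0.19 ± 0.09 did not pass (edgeR, adjusted p = 0.101). It was 0.32 and passed with the trends removed (adjusted p = 0.0134). Neither the change of -0.10 ± 0.09 in TAC WT against Sham WT (adjusted p = 0.484) nor that of 0.10 ± 0.09 in TAC KO against Sham WT (adjusted p = 0.423) passed. The change against Sham WT was 0.25 with the trends removed (adjusted p = 0.0532). Cse1l is among the less GC-rich genes, at 41.6% and the 11.6th percentile of those tested.

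Tnpo1 (ENSMUSG00000009470.17, chr13:98839019-98926384, minus strand) encodes transportin 1, which imports RNA-binding proteins that carry a proline-tyrosine signal. It had 42.9, 55.6, 51.2 and 53.4 CPM in TAC KO, 66.5, 67.0, 58.3 and 61.2 CPM in TAC WT, and 57.7, 56.9, 65.1 and 59.8 CPM in Sham WT. All 4 knockout libraries lie below all 8 wild-type libraries, and library 1 is the lowest. Tnpo1 fell by 0.32 ± 0.08 on the log2 scale against TAC WT (edgeR, adjusted p = 0.00859) and by 19.8% in linear terms. It fell by 0.24 ± 0.08 against Sham WT (adjusted p = 0.0409). In TAC WT against Sham WT the change was 0.08 ± 0.08 (adjusted p = 0.529). The fall against Sham WT was lost when any of 8 single libraries was left out (adjusted p 0.0515 to 0.127), and that against TAC WT never was. The changes were -0.03 against TAC WT (adjusted p = 0.742) and 0.02 against Sham WT with the trends removed. Tnpo1 is long, at 8453 bases, and has a GC content of 40.4%, the 7.9th percentile, and the part of the trends in its fall was not tested further.

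Iqgap1 (ENSMUSG00000030536.10, chr7:80711583-80825974, minus strand) encodes a calmodulin-binding scaffold that links Cdc42, Rac1, actin and the MAP kinase cascade. It had 58.3, 62.5, 69.9 and 61.7 CPM in TAC KO, 83.5, 68.0, 69.4 and 94.9 CPM in TAC WT, and 55.2, 55.5, 64.1 and 66.1 CPM in Sham WT. TAC WT libraries 1 and 4 stand high, and libraries 2 and 3 of that group reach down to the highest knockout library. Iqgap1 rose by 0.39 ± 0.10 under TAC in wild-type hearts (edgeR, adjusted p = 0.0162) and fell by 0.32 ± 0.10 in TAC KO against TAC WT (adjusted p = 0.0275). Between TAC KO and Sham WT the change was 0.07 ± 0.10 (adjusted p = 0.668), and 0.16 with the trends removed. The rise under TAC was lost without Sham WT library 1 or 2 or TAC WT library 1 or 4 (adjusted p 0.0504 to 0.0547). The knockout fall was lost without TAC KO library 1, 2 or 4 or TAC WT library 1 or 4 (0.0551 to 0.0925). Without the trends the rise was 0.36 (adjusted p = 0.0186) and the knockout change -0.20 (adjusted p = 0.156).

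Lrrk2 (ENSMUSG00000036273.15, chr15:91673175-91816120, plus strand) encodes a large kinase and GTPase, mutated in familial Parkinson disease and described as holding NFAT in the cytoplasm with the Nron complex. Its levels were 15.2, 16.1, 14.7 and 14.8 CPM in TAC KO, 22.1, 20.6, 16.7 and 21.7 CPM in TAC WT, and 17.9, 17.5, 17.7 and 17.2 CPM in Sham WT. The knockout libraries lie below every wild-type library, by the narrowest margin to TAC WT library 3. Lrrk2 fell by 25.1% in TAC KO against TAC WT, a log2 change of -0.42 ± 0.08 (edgeR, adjusted p = 0.00201). The call stayed past the threshold when each library was left out in turn and with the trends removed, where the change was -0.23 (adjusted p = 0.0335). The change under TAC, 0.21 ± 0.08, did not pass (adjusted p = 0.0944), but did without TAC WT library 3 (0.29, adjusted p = 0.0065). Against Sham WT the knockout change was -0.21 ± 0.08 (adjusted p = 0.0735). It passed without TAC WT library 3, which shares the estimate of spread (adjusted p = 0.019), and was -0.06 with the trends removed.

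Cul4b (ENSMUSG00000031095.15, chrX:38533274-38576196, minus strand) encodes the scaffold of a cullin-RING ubiquitin ligase. It had 10.9, 13.1, 13.6 and 13.2 CPM in TAC KO, 12.7, 14.1, 13.3 and 15.9 CPM in TAC WT, and 13.2, 12.5, 15 and 14.8 CPM in Sham WT. The groups overlap, and TAC KO library 1 is the lowest of the 12. Its knockout change of -0.13 ± 0.10 did not pass (edgeR, adjusted p = 0.302), and with the trends removed it was -0.02. In TAC WT against Sham WT the change was 0.01 ± 0.10 (adjusted p = 0.949), and in TAC KO against Sham WT -0.12 ± 0.10 (adjusted p = 0.364), or 0.02 with the trends removed.

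Psmd11 (ENSMUSG00000017428.16, chr11:80428615-80473248, plus strand) encodes a lid subunit of the 19S regulatory particle, which feeds ubiquitin-tagged proteins to the proteasome core. It had 72.9, 77.2, 81.5 and 76.9 CPM in TAC KO, 96.3, 97.7, 82.2 and 104 CPM in TAC WT, and 81.8, 83.5, 80.9 and 74.0 CPM in Sham WT. TAC WT libraries 1, 2 and 4 stand above all others, and library 3 lies among the Sham WT values and just above the highest knockout library. Psmd11 fell by 0.30 ± 0.07 in TAC KO against TAC WT (edgeR, adjusted p = 0.00613) and rose by 0.25 ± 0.07 under TAC in wild-type hearts (adjusted p = 0.0257). The rise was lost without Sham WT library 3 or 4 or TAC WT library 1 or 4 (adjusted p 0.053 to 0.0862). With the trends removed it was 0.27 (adjusted p = 0.0172), and the knockout change was -0.18 (adjusted p = 0.0919). Between TAC KO and Sham WT the change was -0.05 ± 0.07 (adjusted p = 0.611), and 0.09 with the trends removed.

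Eif3e (ENSMUSG00000022336.3, chr15:43250058-43282719, minus strand) encodes a subunit of eIF3, the complex that brings the small ribosomal subunit to messenger RNA. It had 60.2, 76.1, 66.4 and 74.7 CPM in TAC KO, 65.0, 69.3, 67.5 and 65.8 CPM in TAC WT, and 64.4, 62.7, 65.9 and 62.9 CPM in Sham WT. The knockout libraries spread wider than the wild-type ones and span them, with library 1 the lowest. The knockout change was 0.05 ± 0.07 against TAC WT and 0.12 ± 0.07 against Sham WT, and neither passed (edgeR, adjusted p = 0.608 and 0.229). The change in TAC WT against Sham WT was 0.07 ± 0.07 (adjusted p = 0.554). Without TAC KO library 1, the one with the steepest GC trend, the change against Sham WT passed (0.19, adjusted p = 0.0304). With the trends removed the changes in TAC KO were 0.35 against TAC WT (adjusted p = 0.000661) and 0.44 against Sham WT (adjusted p = 0.000164). The longest annotated transcript of Eif3e, 4123 bases, has the lowest GC content of the 9, 36.2%. That is the 1.0th percentile of tested genes, where the trend is at its edge. The Eif3e values with the trends removed rest on that transcript, and whether it is the main one in these hearts was not tested.

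Ppp2r1a (ENSMUSG00000007564.15, chr17:20945311-20965916, plus strand) encodes the alpha scaffold of protein phosphatase 2A, on which the catalytic and regulatory subunits assemble. It had 218, 204, 194 and 213 CPM in TAC KO, 161, 155, 156 and 162 CPM in TAC WT, and 214, 192, 176 and 181 CPM in Sham WT. All 4 TAC WT libraries lie below all 8 others, and TAC KO and Sham WT overlap. Ppp2r1a rose by 0.39 ± 0.07 in TAC KO against TAC WT (edgeR, adjusted p = 0.000776), or 30.8%, and fell by 0.27 ± 0.07 under TAC in wild-type hearts (adjusted p = 0.0113). Both calls held without each library in turn and with the trends removed, where the changes were 0.24 (adjusted p = 0.00781) and -0.27 (adjusted p = 0.00479). Against Sham WT the knockout change was 0.12 ± 0.07 (adjusted p = 0.195), and it passed without Sham WT library 1 (0.18, adjusted p = 0.044). That change was -0.02 with the trends removed. In whole hearts, fewer cells of a type and less RNA per cell cannot be told apart for any of these genes.

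**Figure D2:**
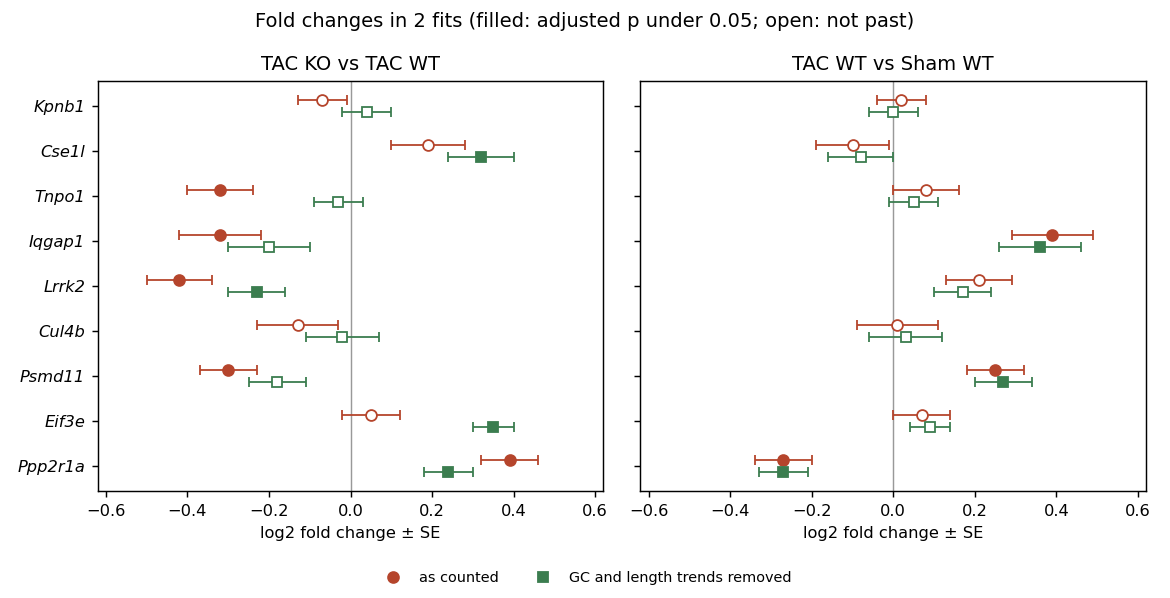
Log2 fold changes with their SE for TAC KO against TAC WT (left) and TAC WT against Sham WT (right), as counted (circles) and with GC and length trends removed (squares), filled where the adjusted p is under 0.05. Removing the trends changes calls in the knockout comparison for Cse1l, Tnpo1, Iqgap1, Psmd11 and Eif3e, and none in the TAC comparison.

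Across all tested genes, the median log2 change of TAC KO against TAC WT ran from -0.224 in the decile with the lowest GC content (median 39.28%) to 0.136 in the decile with the highest (median 59.52%). Psmd11 at 39.9% GC and Tnpo1 at 40.4% lay within the middle 50% of genes of like composition. Lrrk2 at 45.5%, Iqgap1 at 49.3% and Ppp2r1a at 54.8% lay outside it. Cse1l and Eif3e lay above it. By its definition this band leaves out the other 50% of genes in each decile, and it takes no account of length. Lying outside it is therefore no test of a change beyond the trends. TAC WT against Sham WT showed no such slope, with medians by decile between -0.02 and 0.018.

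**Figure D3:**
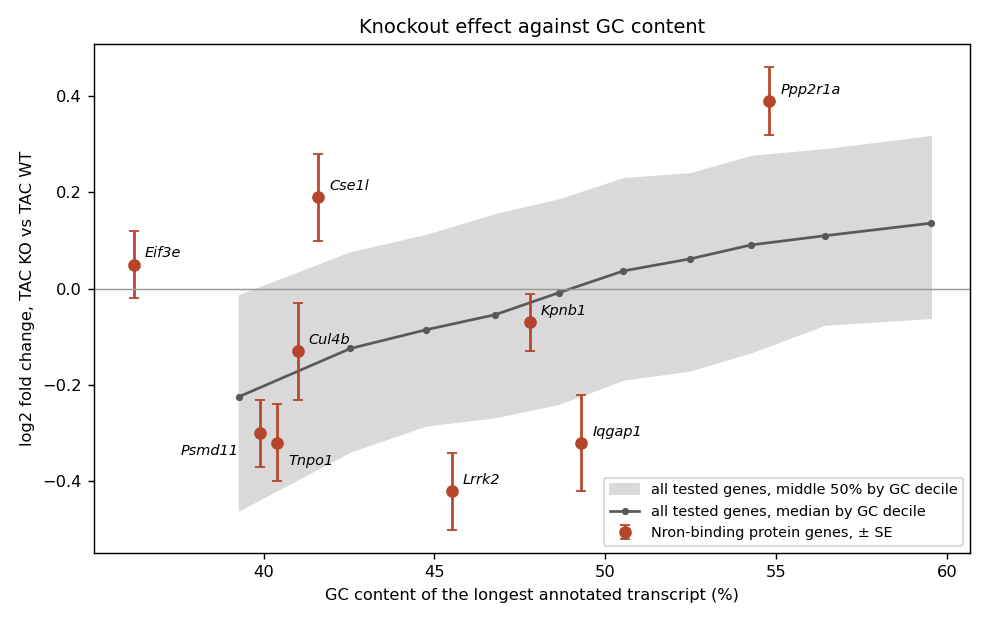
Log2 fold change of TAC KO against TAC WT with its SE (vertical axis) against the GC content of the longest annotated transcript (horizontal axis), for the 9 genes, over the median and middle 50% of all tested genes by decile of GC content. The median climbs from left to right, and Ppp2r1a, Lrrk2, Iqgap1 and Cse1l lie outside the grey band. Eif3e lies to the left of where the band starts.

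Per kb of the longest annotated transcript, Ppp2r1a was the highest of the 9 in every group, with 86.0 ± 4.37 CPM per kb in TAC KO, 65.7 ± 1.54 in TAC WT and 79.1 ± 7.07 in Sham WT (SD, n = 4). Psmd11 came next, at 25.9, 31.9 and 26.9 CPM per kb in TAC KO, TAC WT and Sham WT, followed by Kpnb1 at 24.1, 25.3 and 24.9. Their ranges overlapped in TAC KO and Sham WT and not in TAC WT. Cse1l and Eif3e, at 14.9 to 17.0 CPM per kb, overlapped in every group. Iqgap1 followed at 8.47, 10.6 and 8.09 and Tnpo1 at 6.0, 7.48 and 7.08 CPM per kb, and these neighbours overlapped in Sham WT only. Cul4b had 3.79, 4.17 and 4.13 CPM per kb, and Lrrk2 was lowest at 1.84, 2.45 and 2.12. This order depends on the length used, since counts may come from all exons of a gene. Those span 6383 bases in Psmd11, 6590 in Kpnb1 and 16538 in Iqgap1, against longest transcripts of 2975, 5894 and 7444 bases. The coefficient of variation among libraries of a group was 2.2 to 10.9% over the 9 genes in TAC KO, 2.3 to 16.1% in TAC WT and 1.6 to 9.4% in Sham WT.

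The 5 genes called against TAC WT were compared with other genes by the root mean square difference of centred log2 CPM over the 12 libraries. A value of 0 is an identical profile. Only tested genes with a mean of at least 1 CPM and an established symbol were compared, and the 9 partners were left out. Among 11967 genes the closest to Ppp2r1a were Iqsec2 (0.0434) and Oxa1l (0.0481), and the closest to Tnpo1 were Otud4 (0.0427) and Pum2 (0.0569). For Psmd11 they were Orc2 (0.048) and Rab6a (0.0577), for Lrrk2 Abi2 (0.0651) and Mtcl1 (0.0716), and for Iqgap1 Mettl1 (0.0664) and Lpar1 (0.0784). Among the 9 themselves, Lrrk2 and Psmd11 were the most alike (0.0957) and Iqgap1 and Ppp2r1a the least (0.366).

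A close relative was followed for 5 of the partners. Lrrk1, the other LRRK kinase, fell by 0.33 ± 0.08 in TAC KO against TAC WT (edgeR, adjusted p = 0.00889) and rose by 0.33 ± 0.08 under TAC in wild-type hearts (adjusted p = 0.0118). The knockout change was -0.28 with the trends removed (adjusted p = 0.00848). Its levels were 23.0, 20.3, 18.4 and 17.3 CPM in TAC KO, 25.2, 23.7, 24.6 and 25.4 CPM in TAC WT, and 18.4, 18.5, 20.3 and 21.3 CPM in Sham WT. TAC WT stands above all other libraries, and TAC KO overlaps Sham WT. Tnpo2, the other transportin, fell by 0.28 ± 0.07 in TAC KO (adjusted p = 0.0104), and by 0.26 with the trends removed (adjusted p = 0.00421), where Tnpo1 did not pass. Ppp2r1b, the beta scaffold, was at 8.6 ± 1.64 CPM in TAC KO, 8.15 ± 1.1 in TAC WT and 11.1 ± 0.728 in Sham WT (SD, n = 4). It fell by 0.45 ± 0.13 under TAC (adjusted p = 0.0243), but not past the threshold when Sham WT library 1 or 2 or TAC WT library 1 or 3 was left out (0.0587 to 0.0845). Its knockout change of 0.08 ± 0.13 did not pass, and was 0.09 with the trends removed. Cul4a and Iqgap2 passed in neither comparison, with knockout changes of -0.05 ± 0.07 and 0.13 ± 0.17, or -0.03 and 0.25 with the trends removed.

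The ratio of each partner to its relative within a library was tested by exact two-sided permutation in 15 comparisons, where 4 against 4 libraries can reach p = 0.0286 at the least. The log2 ratio of Iqgap1 to Iqgap2 was 4.61 ± 0.27 in TAC KO, 5.04 ± 0.06 in TAC WT and 4.51 ± 0.05 in Sham WT (SD, n = 4). Iqgap2 was at a low level, with 63 to 103 counts per library in TAC KO, 66 to 88 in TAC WT and 78 to 97 in Sham WT. Its counting error was not modelled in this test. The ranges of TAC KO and TAC WT did not overlap, nor did those of TAC WT and Sham WT, and both differences had an exact permutation p = 0.0286 and an adjusted p of 0.214. Adjusted over the 15, p-values ran from 0.214 to 0.971. At this number of libraries a ratio on its own could not pass that adjustment even at the smallest p, so these adjusted values say nothing for or against a difference. The log2 ratio of Ppp2r1a to Ppp2r1b was 4.61 ± 0.32 in TAC KO, 4.29 ± 0.16 in TAC WT and 4.1 ± 0.12 in Sham WT.

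The wider pathways of the partners were followed in 9 lists. Their counts stand beside 17.3% of all tested genes fallen and 15.7% risen in TAC KO against TAC WT, or 13.6% and 12.5% with the trends removed. Among the 17 other carriers of the importin beta family, 8 fell and 1 rose in TAC KO against TAC WT, with a median log2 change of -0.19 beside 0.0 over all genes, and 3 fell and 2 rose with the trends removed. Ipo7 fell by 0.46 ± 0.08 (edgeR, adjusted p = 0.000636), or a change of -0.25 with the trends removed, and rose by 0.28 under TAC in wild-type hearts. Xpo1, the main protein exporter, fell by 0.46 ± 0.09 and Ipo8 by 0.29 ± 0.06, and neither passed with the trends removed (-0.21 and -0.13, adjusted p = 0.053 and 0.0655). Ipo13 rose by 0.54 ± 0.08 in TAC KO (adjusted p = 0.000198) and by 0.44 with the trends removed, and it fell by 0.39 under TAC. Ipo4 rose by 0.38 under TAC. Of 15 importin alphas and Ran cycle genes tested, 3 fell and 1 rose in TAC KO, with a median of -0.07, and 2 fell and 1 rose with the trends removed. Ranbp2, a filament protein of the pore, fell by 0.50 ± 0.07, Nup50 by 0.26 and Kpna4, an importin alpha, by 0.30, and with the trends removed these changes were -0.20, -0.19 and 0.0. Ranbp3 rose by 0.21, or 0.24 with the trends removed, while Rangap1 (0.31) and Kpna4 (0.22) rose under TAC. Some of these calls depended on 1 library. The Ipo7 rise under TAC was lost without TAC WT library 1 (adjusted p = 0.0603), the Nup50 fall without TAC WT library 1 (0.0519) and the Rangap1 rise without Sham WT library 3 (0.0549). The Kpna4 rise was lost without any Sham WT library or TAC WT library 1, 2 or 4 (0.0569 to 0.108).

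Of 21 other protein phosphatase 2A genes tested, 5 rose and 2 fell in TAC KO against TAC WT, with a median log2 change of 0.07, and 3 rose and 1 fell with the trends removed. Ptpa, the phosphatase's activator, rose by 0.31 ± 0.06 (edgeR, adjusted p = 0.00131) and by 0.25 with the trends removed. The regulatory subunits Ppp2r5d and Ppp2r5b rose by 0.24 and 0.28, neither past the threshold with the trends removed (0.14 and 0.11, adjusted p = 0.0865 and 0.281). Ppp2r5d fell by 0.23 under TAC. Striatin (Strn) fell by 0.40 ± 0.08, and by 0.20 with the trends removed, while Strn3 fell by 0.24 and was at 0.03 with them removed. The catalytic subunits Ppp2ca and Ppp2cb rose by 0.29 and 0.23 under TAC. Only 4 of the 21 were called without TAC KO library 1, 2 or 4, TAC WT library 1 or 2 or Sham WT library 1 or 2. The Ppp2r5b rise was lost without TAC KO library 1 (adjusted p = 0.0523). The Strn3 fall held only when TAC KO library 3 or TAC WT library 3 or 4 was the one left out, and was otherwise at 0.0505 to 0.117. Under TAC, the Ppp2r5d fall was lost without Sham WT library 1 or 2 or TAC WT library 1 or 4 (0.0509 to 0.0706). The Ppp2ca rise was lost without any Sham WT library or TAC WT library 1 or 2 (0.055 to 0.0883), and the Ppp2cb rise without Sham WT library 2 or 3 or TAC WT library 4 (0.0627 to 0.0726).

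Of the 13 other eIF3 subunits, 4 rose and 3 fell in TAC KO against TAC WT, with a median log2 change of 0.1, and 2 rose and 1 fell with the trends removed. Eif3a, the largest subunit, was at 164 ± 14.4 CPM in TAC KO and 297 ± 11.3 CPM in TAC WT (SD, n = 4). It fell by 0.86 ± 0.07 (edgeR, adjusted p = 7.42e-06), and by 0.72 with the trends removed, and it rose by 0.28 under TAC in wild-type hearts. Eif3j1 and Eif3j2 fell by 0.36 and 0.93, and Eif3g, Eif3f and Eif3l rose by 0.22, 0.22 and 0.20. Of these 5, Eif3f alone passed with the trends removed (0.15, adjusted p = 0.0399), and the changes of Eif3j1, Eif3j2, Eif3g and Eif3l were then -0.18, -0.85, 0.03 and 0.12. Eif3h rose by 0.26 under TAC. Relative to Sham WT, 8 rose and 1 fell in TAC KO, where 12.8% of all tested genes rose and 14.8% fell. After trend removal 4 rose and 1 fell, where 9.86% of genes rose and 11.5% fell. Without TAC WT library 1 only 4 of the 13 were called against TAC WT, and the Eif3l rise was at an adjusted p of 0.0508. The Eif3j2 fall was lost without TAC KO library 1, 2 or 4 or TAC WT library 1 or 3 (0.0579 to 0.106). That gene was at a low level, 0.398 ± 0.211 CPM in TAC KO and 0.767 ± 0.136 CPM in TAC WT (SD, n = 4).

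Of the 17 other 19S proteasome subunits, 5 rose in TAC KO against TAC WT by edgeR's test and the other 12 did not pass, with a median log2 change of 0.08. The 5 became 2 without TAC KO library 4, 1 without TAC WT library 1, 1 with the compared groups alone and 0 with no low-count filter, where edgeR tests more genes. With the trends removed 1 rose and 1 fell. Psmd8, Psmd3 and Psmc3 rose by 0.19, 0.17 and 0.16, and with the trends removed they were at 0.06, 0.05 and 0.0. As counted, Psmd11, the lid subunit described above, fell in TAC KO while these 3 rose. With the trends removed neither these 3 nor Psmd11 passed (Psmd11 at -0.18, edgeR, adjusted p = 0.0919). Psmd8 and Psmc4 rose by 0.25 and 0.18 under TAC, as Psmd11 did. The Psmd3 rise was lost without TAC KO library 4 or TAC WT library 1 (adjusted p = 0.0625 and 0.0693), and the Psmc3 rise without these or TAC WT library 4 (0.051 to 0.0704). The Psmc4 rise was lost without Sham WT library 1, 3 or 4 or TAC WT library 3 or 4 (0.0512 to 0.0994). Relative to Sham WT, 11 of the 17 rose in TAC KO, beside 12.8% of all tested genes, and 6 did without Sham WT library 4. With the trends removed 4 rose, beside 9.86% of all tested genes.

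Among 24 other cullins and factors of the Cul4 ligases, 5 rose and 3 fell in TAC KO against TAC WT, with a median log2 change of -0.01, and 7 rose and 1 fell with the trends removed. Dcaf11, a substrate receptor, rose by 0.43 ± 0.07 (edgeR, adjusted p = 0.00074) and Ddb2, the damage-sensing receptor, by 0.36 ± 0.10 (adjusted p = 0.0148). Their changes were 0.53 and 0.34 with the trends removed. Both fell under TAC in wild-type hearts, by 0.33 and 0.56. Dda1 rose by 0.23, and Dcaf10, Dcaf1 and Dcaf5 fell by 0.30, 0.24 and 0.21. Of these 4, Dcaf5 alone passed with the trends removed (-0.15, adjusted p = 0.0292), and the changes of Dda1, Dcaf10 and Dcaf1 were then 0.06, -0.10 and -0.11. As counted, the Dcaf5 call was lost without TAC WT library 1 (-0.19, adjusted p = 0.0541).

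Of 12 relatives and partners of Iqgap1, 1 rose and 2 fell in TAC KO against TAC WT, as counted and with the trends removed, and the median log2 change was 0.02. Clip1, which tethers microtubule ends, fell by 0.41 ± 0.11 (edgeR, adjusted p = 0.0133) and rose by 0.44 ± 0.11 under TAC (adjusted p = 0.0129), and both passed with the trends removed (-0.32 and 0.43). Apc, which binds Iqgap1 at the cell front, fell by 0.42, and by 0.17 with the trends removed, and the MAP kinase Mapk3 rose by 0.30, which did not pass with the trends removed (0.11, adjusted p = 0.124). Of 15 relatives of Lrrk2 and Rab substrates of its kinase, 2 fell and 1 rose in TAC KO, with a median of 0.07, and 1 fell and 1 rose with the trends removed. As counted they were Lrrk1, the small GTPase Rab8b (-0.38) and Rilpl2, a binder of phosphorylated Rabs (0.32), and the Rab8b and Rilpl2 changes did not pass with the trends removed (-0.17 and 0.29). The Rilpl2 call held only when TAC KO library 3 or 4 or TAC WT library 4 was the one left out, and was otherwise at 0.0514 to 0.129. Rab3a fell by 0.73 under TAC, a call lost without Sham WT library 1 (0.058) or TAC WT library 1 (0.0526).

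NFAT factors, calcineurin, its Rcan regulators and the kinases that send NFAT out of the nucleus made a list of 20. In it 9 fell and 2 rose in TAC KO against TAC WT, where 17.3% of all tested genes fell and 15.7% rose. Without the trends 8 fell and 1 rose, where 13.6% of genes fell and 12.5% rose. The median log2 change was -0.21, beside 0.0 over all genes. Nfat5 fell by 0.65 ± 0.09 (edgeR, adjusted p = 0.000205), Gsk3b by 0.38 ± 0.08 and the calcineurin catalytic subunit Ppp3ca by 0.27 ± 0.06, and all 3 passed with the trends removed, at -0.38, -0.20 and -0.17. Nfat5 differs from the other NFAT factors in not being controlled by calcineurin. Those others, Nfatc1, Nfatc2, Nfatc3 and Nfatc4, did not pass, with changes of -0.02, -0.28, -0.1 and 0.12 (edgeR, adjusted p = 0.81, 0.105, 0.303 and 0.429). Nor did they pass with the trends removed (-0.02, -0.24, 0.04 and 0.02). The export kinase Dyrk1b rose by 0.81 ± 0.12 (adjusted p = 0.000328) and Gsk3a by 0.29 ± 0.06, and with the trends removed Dyrk1b passed (0.61) and Gsk3a did not (0.10, adjusted p = 0.217). Other kinases of the list fell in TAC KO against TAC WT, Dyrk1a by 0.34, Dyrk2 by 0.47, Csnk1d by 0.26 and Csnk1e by 0.21. With the trends removed these changes were -0.23, -0.34, -0.31 and -0.32, and that of Dyrk1a did not pass (edgeR, adjusted p = 0.0771). Csnk1a1 did not pass in either fit (-0.22 and -0.10). Rcan1, a calcineurin inhibitor whose gene is a known NFAT target, averaged 300.0 ± 129 CPM in TAC KO, 615 ± 164 CPM in TAC WT and 118 ± 13.6 CPM in Sham WT (SD, n = 4). It rose by 2.39 ± 0.29 under TAC in wild-type hearts (adjusted p = 7.64e-05). In TAC KO it fell by 1.03 ± 0.27 against TAC WT (adjusted p = 0.0107), or a change of -1.16 with the trends removed. The CPM ranges overlap, and this value was picked after it was seen. The casein kinase Csnk1d rose by 0.20 under TAC, a call lost without Sham WT library 2 or 3 or TAC WT library 1 or 4 (adjusted p 0.0549 to 0.0757).

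**Figure D4:**
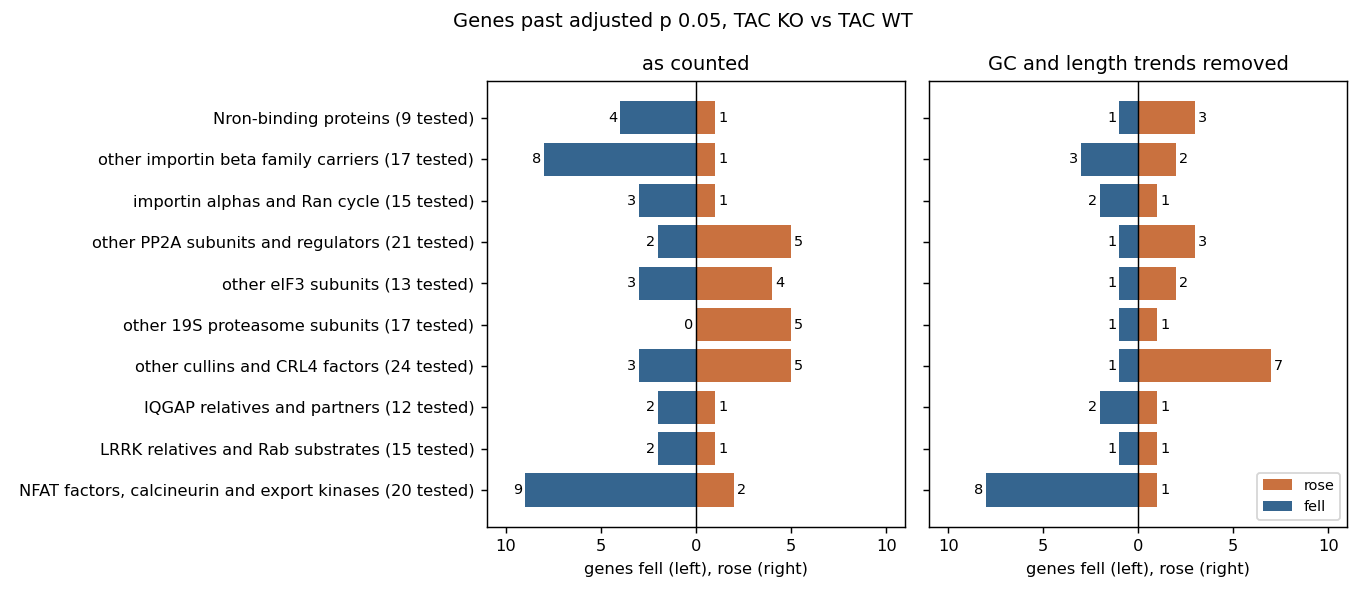
Number of genes past an adjusted p of 0.05 in TAC KO against TAC WT, fallen to the left and risen to the right, for the 9 Nron partners and 9 lists of related genes, as counted (left panel) and with GC and length trends removed (right panel). The list of NFAT factors, calcineurin, Rcan genes and export kinases keeps 8 fallen genes of 20 in the right panel. The importin beta carriers have 3 of 17.

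Markers of other heart cell types moved between the groups, and their part in these results was not tested. Macrophage and monocyte markers summed to 194 to 246 CPM in TAC KO, 126 to 180 in TAC WT and 144 to 163 in Sham WT, and 5 of 8 tested rose in TAC KO against TAC WT, as counted and with the trends removed, where 15.7% and 12.5% of all tested genes rose. Fibroblast markers summed to 1770 to 2070 CPM in TAC KO, 1470 to 1780 in TAC WT and 1390 to 1620 in Sham WT, with 3 of 8 risen, or 2 with the trends removed. Endothelial markers summed to 1460 to 1760 CPM in TAC KO, 1740 to 2030 in TAC WT and 1650 to 1910 in Sham WT, with 2 of 8 fallen, or 3 with the trends removed, where 17.3% and 13.6% of all tested genes fell. Smooth muscle and pericyte markers summed to 1030 to 1170 CPM in TAC KO, 1090 to 1420 in TAC WT and 1140 to 1280 in Sham WT, with 3 of 8 risen and 1 fallen, or 3 risen with the trends removed. Cardiomyocyte markers, the defining ones of the labelled tissue, summed to 66200 to 71300 CPM in TAC KO, 64900 to 68800 in TAC WT and 72500 to 82800 in Sham WT, with 3 of 8 risen, or 2 with the trends removed. Neutrophil markers summed to 4.41 to 19.6 CPM in TAC KO, 3.8 to 6.31 in TAC WT and 2.35 to 7.5 in Sham WT, and B and T cell markers to 3.42 to 6.05 CPM in TAC KO, 2.92 to 4.41 in TAC WT and 3.48 to 5.57 in Sham WT. No gene of these lists was at 0 in all 12 libraries.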

How the data were processed

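Counts per gene were deposited for 12 mouse heart libraries, 4 per group, made with a stranded kit from 250 ng of RNA per the labels. The authors used the build GRCm38, STAR, featureCounts 1.6.4, bcl2fastq, Trim Galore 0.5.0, FastQC 0.11.8, MultiQC 1.7, StringTie 1.3.5 and DESeq2, per the submitters' processing notes. What each tool did, which annotation was counted and whether strand was used is not given in the sources used here, so reads of overlapping antisense genes may be shared. Of 54146 records 54079 were named by the GENCODE annotation.

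Raw counts of all 12 libraries entered 1 fit in edgeR 4.0.16 under R 4.3.3, with TMM scaling, filterByExpr and quasi-likelihood tests, and p-values were Benjamini-Hochberg adjusted over 15477 genes. The common biological coefficient of variation was 0.113. GC and length trends of each library, fitted as splines with 5 degrees of freedom on 15472 genes, were removed as offsets in a second fit. GC content and length were those of each gene's longest annotated transcript, whether protein-coding or not. The other alternatives were DESeq2 1.42.0, RLE scaling, no low-count filter, the compared groups alone and leaving out each library. Log2 ratios of counts used a pseudocount of 0.5, or 1 as an alternative. The edgeR test was run on simulated data without a trend and with a GC trend alike in all TAC KO libraries, and DESeq2 on data without a trend. No length trend was simulated, and the outcome is not used as support here.

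Copies sharing 95% identity across 50% or more of their length were sought in minimap2 2.31-r1302. Eif3s6-ps1, Eif3s6-ps2, Gm14048 and Gm6493, pseudogenes of Eif3e, Psmd11 and Tnpo1, held at most 74 counts over all libraries, against 22724 or more for those genes. Gm11583, antisense to Kpnb1, held 2, and Iqgap1 overlaps Gm44649 on the opposite strand. The members and the lists were chosen with earlier results of these data known. All 9 members are named, with their relatives. From each list up to 3 genes that rose and 3 that fell with the smallest p are named against TAC WT, and up to 2 each way under TAC. Further genes of the NFAT list are named as well. Library pairs of a group differed by more than sampling noise, so each was counted. The limit of 3 counts covers counting error only.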

Additional observations from a re-analysis of the deposited data

Results flagged for a closer look

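Cul4b in TAC KO library 1, at 10.9 CPM, lay far below the other 3 libraries of its group, which had 13.1, 13.2 and 13.6 CPM. Its gap to the nearest was 0.842 of the group's range, which is past Dixon's 95% limit for 4 values. Of the 27 sets of 4 libraries examined (9 genes in 3 groups) it was the only one past that limit, and chance alone flags about 1 in 20. That library also had the steepest GC trend, 0.429, and Cul4b lies at the 9.7th percentile of GC content.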

How the results depend on the processing

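No paired analysis was possible because the labels give no replicate numbers that link the groups. Leaving out 1 library at a time, 4 to 5 of the 9 genes were called in TAC KO against TAC WT, 1 to 4 in TAC WT against Sham WT and 0 to 2 in TAC KO against Sham WT, where the count was also 0 with no low-count filter. Over all genes, 3963 to 5080, 2251 to 3474 and 3070 to 4480 were called in these comparisons, each within 1.5 times the count with all libraries. With GC and length trends removed the direction turned in TAC KO against Sham WT for Cul4b (0.02), Kpnb1 (0.05), Ppp2r1a (-0.02), Psmd11 (0.09) and Tnpo1 (0.02). In TAC KO against TAC WT it turned for Kpnb1 (0.04), Kpna4 (0.0), Nfatc3 (0.04), Psmc3 (0.0) and Strn3 (0.03). Of the changes that turned, those of Tnpo1, Kpna4, Psmc3 and Strn3 had passed before. Signs that turned without 1 library belonged to changes near 0 that had not passed. In TAC KO against TAC WT these were Cul4a (-0.10 to 0.01), Iqgap2 (0.0 to 0.25), Ppp2r1b (-0.03 to 0.19) and the log2 ratios of Cul4b to Cul4a (-0.16 to 0.02), Lrrk2 to Lrrk1 (-0.16 to 0.0) and Tnpo1 to Tnpo2 (-0.11 to 0.08). In TAC WT against Sham WT they were Cul4a (-0.03 to 0.07), Cul4b (-0.05 to 0.06), Kpnb1 (-0.01 to 0.09), Tnpo2 (-0.06 to 0.02) and the ratio of Cul4b to Cul4a (-0.11 to 0.06). The causes were not tested. The Tnpo1 fall against Sham WT also missed the threshold with the compared groups alone, and Lrrk2 passed there. Of 39 list genes named by smallest p in TAC KO against TAC WT, 30 calls held without each library in turn and 20 were lost or turned with the trends removed. Of 18 so named in TAC WT against Sham WT, 9 held without each library and all 18 with the trends removed.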
